A study of Mus musculus with 12 samples.

Results

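The 8 genes described here are targets of the transcription factor P53 that act on the cell cycle: Cdkn1a, Btg2, Plk2, Plk3, Sfn, Psrc1, Gtse1 and Ckap2. They are 8 of the 24881 gene symbols in the table, and all 8 passed the filter on low values. Cdkn1a, Btg2, Plk2, Plk3 and Sfn were taken as known P53 targets of cell cycle arrest. Psrc1, Gtse1 and Ckap2 were chosen by their measured values, because their level was lower in P53-/- 2i ESCs while that of other genes of the G2 and M phases was higher. For these 3 genes every 2i value below is therefore a description without a test, and only the serum comparison gives a test. The serum libraries did not choose them, but the spread used in that test was shared by all libraries, those of 2i among them.

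P53 halts the cell cycle by switching on genes whose products block it, and the best known is Cdkn1a, whose product P21 inhibits the cyclin-dependent kinases that drive entry into S phase. Other targets act later: Sfn (14-3-3 sigma) keeps mitotic kinases in the cytoplasm, and Gtse1 binds microtubules and P53 itself and dampens the P53 response after G2 arrest. Mouse ESCs have a short G1 phase, and culture in 2i, with inhibitors of MEK and GSK3, lengthens it.

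RNA-seq was carried out on G1-phase cells sorted from R1 mouse ESCs that carry the FUCCI reporter, a pair of fluorescent proteins that mark cell cycle phases. WT ESCs and P53-/- ESCs were each grown in 2i or in serum, which gave 4 groups of 2 libraries. In the P53-/- cells Trp53 had been cut by CRISPR-Cas9 in an exon common to its isoforms, and the study's RNA-seq used 2 clones, but which library came from which clone is not given. A further experiment on P21-/- ESCs was not analysed here. Levels are FPKM (fragments scaled to transcript length and to the mapped fragments of the library), fold changes are differences of log2(FPKM + 0.1), and a gene was called at a limma adjusted p under 0.1 with a fold change over 1.5. For WT nothing says that the libraries of a group came from separate cultures, and P53-/- libraries could not be matched to clones, so p values measure the spread between these libraries, which may be technical in part. A lower level in a bulk library can come from fewer cells that express a gene or from less RNA per cell, and these cannot be told apart.

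Trp53 itself read 7.25 and 1.88 FPKM in the P53-/- 2i libraries against 26.8 and 33.7 in WT. The P53-/- serum libraries held 16.8 and 3.68 FPKM, and the WT serum libraries 77.6 and 75.1. The estimated depth ran from 5200000 to 13000000 fragments, up to a factor common to all libraries. The 8 pluripotency markers, among them Pou5f1 and Nanog, summed to 1897 and 1877 FPKM in the P53-/- 2i libraries against 2428 and 2244 in WT, and to between 2190 and 2369 in serum. None was at 0 in a library. All 8 had values below 0 for P53-/- against WT in 2i, with a median log2 fold change of -0.30, and 5 of 8 in serum, with a median of -0.03. None was called by limma in either culture, and 2 in 2i and 1 in serum had an unadjusted p under 0.05. Such a p was found for 3173 of all 12572 genes tested in 2i and for 1422 in serum. The 6 fibroblast markers summed to at most 0.595 FPKM. The 6 endoderm markers, mostly Gata4 in 2i, were low but lay below WT in both P53-/- libraries of each culture. They summed to 1.30 and 1.77 FPKM in the P53-/- 2i libraries against 3.98 and 2.25 in WT, and to 0.653 and 0.956 FPKM in the P53-/- serum libraries against 2.10 and 1.53 in WT. Gata4 was the one of the 6 that passed the filter and was called in neither culture (-0.81 in 2i with a limma adjusted p of 0.288, and -1.43 in serum with 0.273). Sox7, Foxa2, Sox17 and Afp were at 0 in some libraries, and the part of the endoderm markers in the results below was not tested. RNA of later phases differed between the G1-sorted 2i libraries: the 51 other G2/M genes tested summed to 2275 and 1994 FPKM in the P53-/- 2i libraries against 1594 and 1624 in WT 2i, but to 3432 and 3231 against 3433 and 3442 in serum. The part of this difference in the results below was not tested.

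The promoters of the 8 genes were read for the P53 response element, a pair of 10-base half-sites side by side, since the genes share their regulator. RefSeq windows of GRCm38.p6, from 250 bases before to 50 after each transcription start, gave 11 windows for the 8 genes. A half-site that matched the consensus exactly was present for 3 of 8 genes (Cdkn1a, Ckap2 and Gtse1). It was in 3 of the 11 windows and in 8.36% of the 32851 windows of all genes. A full site of 20 bases without spacer and with at most 2 mismatches was found for the same 3 genes. It was in 3 of the 11 windows and in 0.798% of all windows. One with at most 1 mismatch was found for Cdkn1a and Gtse1, in 2 of the 11 windows and in 0.0883% of all windows. The stretches below show these sites in capitals, 5′ to 3′ on the gene's strand. That of Cdkn1a lies upstream of its first start. The window of its later start held no exact half-site, and its best match of 20 bases had 5 mismatches.
Cdkn1a, chr17:29090889-29090978, plus strand, 1 mismatch, site from base -51: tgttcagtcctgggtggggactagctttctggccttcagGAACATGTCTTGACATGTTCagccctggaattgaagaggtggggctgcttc
Gtse1, chr15:85859940-85859969, plus strand, 1 mismatch, site from base -1 of its second start: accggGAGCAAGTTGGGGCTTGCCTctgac
Ckap2, chr8:22185960-22186039, minus strand, 2 mismatches, site from base -203: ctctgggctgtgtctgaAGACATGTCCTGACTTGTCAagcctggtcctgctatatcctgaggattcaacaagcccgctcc

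The promoters of G2/M genes often carry a short element, known as CHR, next to which CCAAT boxes sit. Its letters TTTGAA or TTTAAA, read on both strands, were present for Ckap2, Gtse1 and Plk2, in 4 of the 11 windows and in 27.6% of all windows. CCAAT, read on both strands, was present for 5 of 8 genes, in 7 of the 11 windows and in 37.4% of all windows. Psrc1 had neither a P53 half-site nor these letters of the CHR in its windows. A match says only that the letters are there, and sites outside the windows were not searched. The elements of the pair of G2/M genes that hold them upstream of the start are in capitals below.
Ckap2, chr8:22185870-22185949, minus strand: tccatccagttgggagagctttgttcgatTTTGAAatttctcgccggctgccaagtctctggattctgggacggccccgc
Gtse1, chr15:85859627-85859706, plus strand, upstream of its first start: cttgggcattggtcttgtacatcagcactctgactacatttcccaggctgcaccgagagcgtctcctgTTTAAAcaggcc

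Of the 5 known arrest targets, 4 fell in P53-/- 2i ESCs, namely Cdkn1a, Btg2, Plk2 and Sfn, and 3 in P53-/- serum ESCs, namely Cdkn1a, Btg2 and Plk2. Of the 3 genes chosen in 2i, Psrc1 fell in serum as well. Plk3 passed the test in neither culture. Of all 12572 genes tested, 5.97% were called lower in P53-/- 2i ESCs and 0.883% in P53-/- serum ESCs. Both P53-/- libraries lay below both WT libraries for 7 of the 8 genes in 2i and for 7 of 8 in serum, all but Plk3. This order was found for 24.7% of all genes in 2i and for 21.8% in serum, and in 2i it had helped to choose 3 of the 7.

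**Figure D1:**
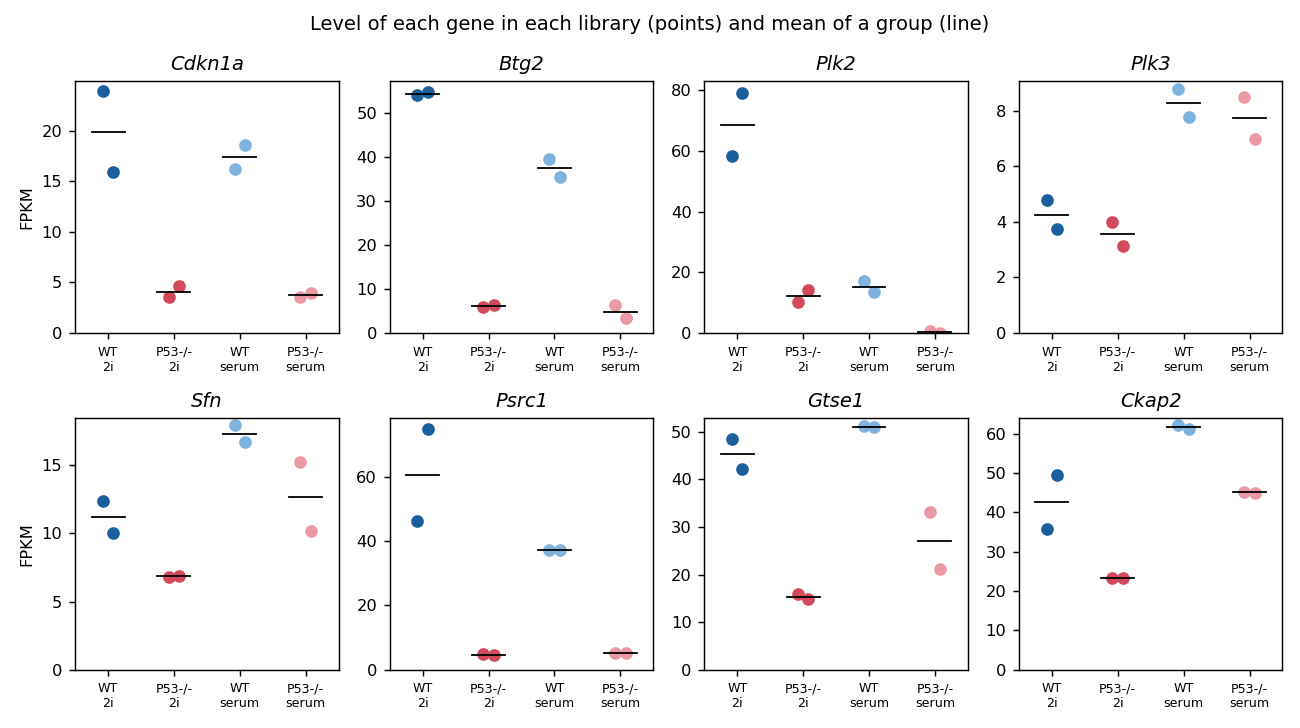
Level in FPKM (vertical axes, each from 0) of the 8 genes in the 8 libraries, as points, with the mean of each group as a line. The P53-/- libraries lie below the WT libraries of the same culture for every gene but Plk3, and Plk2 is close to 0 in P53-/- serum ESCs, at 0.544 and 0.152 FPKM.

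For Cdkn1a the WT 2i libraries held 23.9 and 15.9 FPKM, and the P53-/- 2i libraries 3.56 and 4.64. The WT serum libraries held 16.2 and 18.6 FPKM, and the P53-/- serum libraries 3.57 and 3.93. The P53-/- level of this G1 inhibitor was thus close to 4 FPKM in each culture, and the WT libraries of 2i spread on both sides of those of serum. The fold change was -2.24 on the log2 scale in 2i (SE 0.22, 4.72-fold lower, limma adjusted p = 0.00218) and -2.18 in serum (SE 0.22, 4.54-fold lower, limma adjusted p = 0.00601). Without the second WT serum library the serum call was lost at a fold change of -2.08 (limma adjusted p = 0.126). P53-/- ESCs kept 20.6% of the WT mean in 2i and 21.6% in serum.

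Btg2 is an antiproliferative gene whose product recruits the deadenylase that shortens mRNA tails. Its level was 54.2 and 54.7 FPKM with P53 in 2i, against 5.98 and 6.35 without it. In serum the WT libraries held 39.5 and 35.6 FPKM, and those without P53 6.27 and 3.39. The groups of each culture did not overlap, and P53-/- ESCs kept 11.3% of the WT mean in 2i and 12.9% in serum. The log2 fold change came to -3.12 in 2i (SE 0.25, limma adjusted p = 0.000673) and -2.996 in serum (SE 0.25, limma adjusted p = 0.00243).

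Plk2, a polo-like kinase that acts in G1 on centriole duplication, was the gene with the widest range of levels. WT ESCs expressed it at 58.2 and 79.1 FPKM in 2i and at 17.1 and 13.5 FPKM in serum. P53-/- ESCs had 10.3 and 14.2 FPKM left in 2i, and 0.544 and 0.152 FPKM in serum. The order of the groups was WT 2i, WT serum, P53-/- 2i and P53-/- serum. P53-/- 2i ESCs at their highest, 14.2 FPKM, overlapped the lower WT serum library at 13.5 FPKM. P53-/- ESCs kept 17.8% of the WT mean in 2i but 2.27% in serum. The log2 fold change was -2.48 in 2i (SE 0.41, limma adjusted p = 0.0157) and -5.25 in serum (SE 0.41, limma adjusted p = 0.0018). The serum value rests on few reads, an estimated 19 and 4 fragments in the P53-/- libraries against 630 and 260 in WT, and was -3.60 with a pseudocount of 1, -5.93 without the first P53-/- serum library and -4.57 without the second, each still called. A fit of the serum libraries alone kept the fold change but not the call for Plk2 (adjusted p = 0.111) and Btg2 (adjusted p = 0.133).

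Plk3 is a polo-like kinase of the stress response. WT 2i libraries held 4.78 and 3.74 FPKM of it and P53-/- 2i libraries 4.00003 and 3.12. WT serum libraries held 8.79 and 7.78 FPKM, and P53-/- serum libraries 8.49 and 7.001. The genotypes overlapped in each culture. The difference between genotypes was -0.25 in 2i (95% interval -0.72 to 0.22, limma adjusted p = 0.490) and -0.10 in serum (95% interval -0.57 to 0.37, limma adjusted p = 0.895). With 1 library left out, the 2i value ran from -0.43 to -0.078 and was not called. In the GENCODE M21 annotation Plk3 overlaps Tctex1d4 on the opposite strand, and whether reads were counted by strand is not given in the sources used here.

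Sfn had 12.4 and 10.03 FPKM in 2i with P53, and 6.83 and 6.89 FPKM without it. In serum the same genotypes gave 17.9 and 16.7 FPKM, and 15.2 and 10.2 FPKM. Neither culture showed an overlap, but the gap in serum was small next to the spread of the P53-/- libraries. The log2 fold change was -0.69 in 2i (SE 0.20, limma adjusted p = 0.0840) and -0.47 in serum (SE 0.20, limma adjusted p = 0.440). The serum value was -0.76 without the first P53-/- serum library and -0.18 without the second. Leaving out any one of the 2i libraries ended the call in 2i, with fold changes of -0.85 to -0.54 and limma adjusted p from 0.104 to 0.258. Sfn is also an epithelial gene, and the 7 epithelial markers summed to 275 and 279 FPKM in the P53-/- 2i libraries, against 323 and 186 in WT. In serum they summed to 106 and 101 FPKM without P53, against 123 and 124 with it, and their part in the values of Sfn was not tested. Of the 5 epithelial markers tested in 2i, Epcam (0.99) and Krt7 (2.14) were called higher in P53-/- ESCs, while Krt8 (-0.76), Krt18 (-0.34) and Cldn4 (0.31) were not called. Krt7 averaged 2.16 FPKM in P53-/- 2i ESCs, 0.524 in WT 2i and 0.170 or less in serum. The filter took it in mainly through the group where it was high, so its call is a description only. The call of Epcam was lost without the second P53-/- 2i library (0.99) and in a fit of the 2i libraries alone, and that of Krt7 in 5 of 11 alternatives, with values from 1.09 to 3.09. In serum none of the 5 was called by limma, and 2 had an unadjusted p under 0.05, against 1422 of all 12572 genes. Krt14, which marks stratified epithelium, was at 0 in every library, and Krt5 in all but the first P53-/- serum library (0.0372 FPKM).

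**Figure D2:**
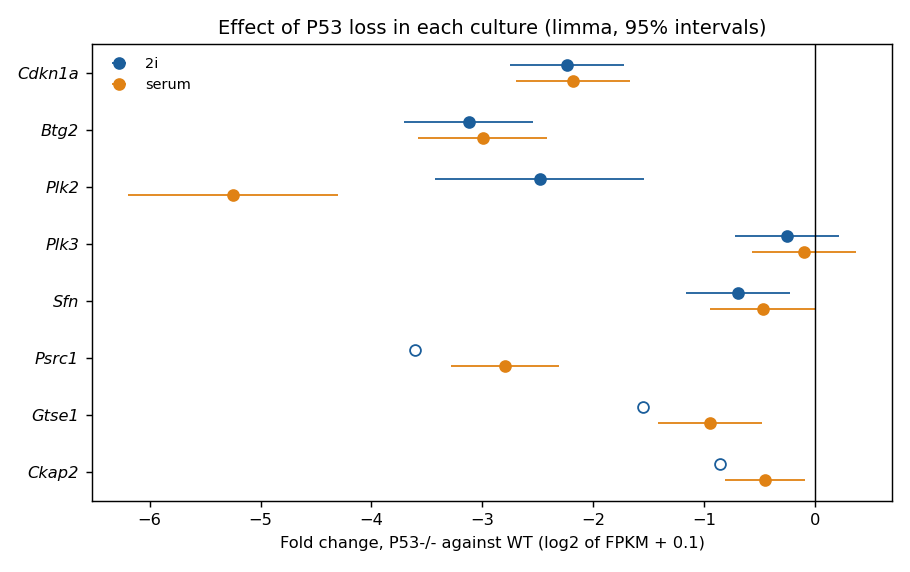
Fold change between P53-/- and WT ESCs (log2, horizontal axis) for each gene in 2i (blue) and serum (orange), with limma 95% intervals; open circles are values that chose the gene and carry no interval. Cdkn1a and Btg2 have nearly the same value in both cultures, and Plk2 is lower by 5.25 in serum against 2.48 in 2i. The intervals of Plk3 in both cultures cross 0, and that of Sfn in serum just does.

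Psrc1 encodes a spindle protein that binds microtubules. Its level with P53 in 2i was 46.3 and 74.9 FPKM, and without P53 it was 4.99 and 4.48, a log2 difference of -3.61 that served to choose it. WT serum libraries gave 37.1 and 37.3 FPKM, and those without P53 5.33 and 5.21, with differences within a group far below that between the genotypes. In serum Psrc1 fell by 2.80 on the log2 scale (SE 0.21, 6.95-fold lower, limma adjusted p = 0.00161). Its P53-/- level was close to 5 FPKM in each culture, 7.81% of the WT mean in 2i and 14.2% in serum.

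WT 2i libraries held 48.5 and 42.1 FPKM of Gtse1 and P53-/- 2i libraries 15.8 and 14.9, a log2 difference of -1.55 used in the choice. The serum libraries held 51.2 and 51.1 FPKM with P53, and 33.2 and 21.1 without it. Both P53-/- serum libraries were lower than WT, but they differed from each other more than WT libraries did. The serum fold change of -0.95 (SE 0.20) was not called (limma adjusted p = 0.122). Without the first P53-/- serum library it was -1.27 and was called (limma adjusted p = 0.0266). Without the second it was -0.62 and was not called (limma adjusted p = 0.291).

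Ckap2, a microtubule-stabilizing protein of the spindle poles, had 35.9 and 49.5 FPKM in 2i with P53 against 23.2 and 23.4 without it, a log2 difference of -0.85 used in the choice. Serum gave 62.1 and 61.2 FPKM with P53 against 45.3 and 44.9 without it. The replicates lay close together and the genotypes apart, but the fold change of -0.45 (SE 0.15) did not pass the test in serum (limma adjusted p = 0.327). P53-/- ESCs kept 54.6% of the WT mean in 2i and 73.1% in serum.

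The list of G2/M genes from which Psrc1, Gtse1 and Ckap2 come held 51 other tested genes. In 2i, 13 of the 51 were called higher in P53-/- ESCs and 0 lower, and the median log2 fold change was 0.41 against 0.02 for all genes tested. Since 4.36% of all genes were called higher in 2i and the choice of the 3 genes used this rise, nothing is read from the count. The genes called were Cenpa, Bub1, Ccnb2, Ect2, Ttk, Kif2c, Cks2, Kif23, Cks1b, Cdc25c, Anln, Gas2l3 and Cdc20, with log2 fold changes between 0.63 and 1.23. Cenpa, the centromeric histone H3 variant, read 107 and 89.8 FPKM without P53 in 2i against 50.3 and 34.8 with it. A fit of the 2i libraries alone called 1 of the 51, and 7 were called without the first P53-/- 2i library. Ect2, which starts the contractile ring of cytokinesis, read 31.6 and 32.7 FPKM against 16.9 and 17.9.

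In serum limma called none of the 51 genes, and their median was -0.01 against 0.02 for all genes. An unadjusted limma p under 0.05 was found for 8 of the 51 (4 in each direction), against 1422 of all 12572 genes. Of all genes tested, 0.135% were called higher in serum. The 3 chosen genes read -2.80, -0.95 and -0.45 in the same serum libraries, whereas the 51 others ran from -0.61 to 0.50. With all libraries, Psrc1 and Gtse1 were thus below this whole range and Ckap2 was within it, and the place of Gtse1 rests on the P53-/- serum libraries named above.

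**Figure D3:**
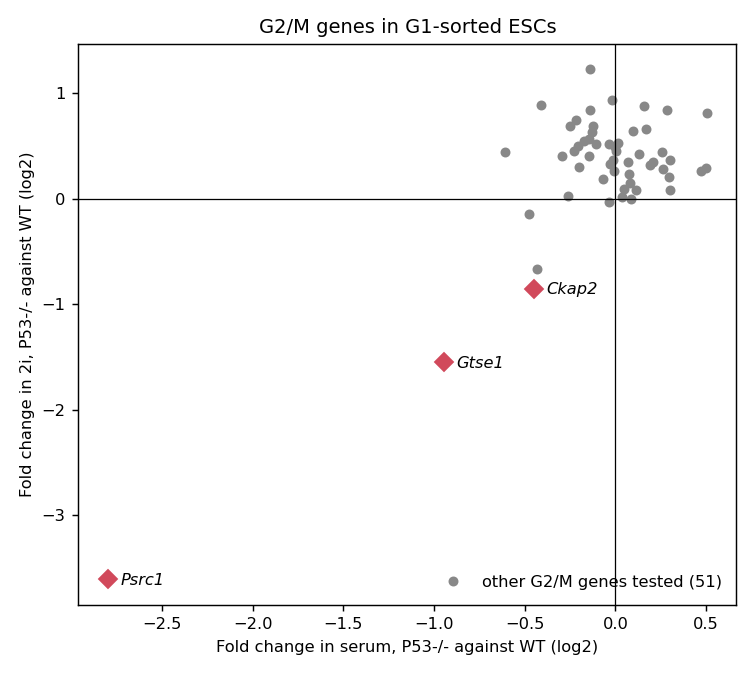
Fold change between P53-/- and WT ESCs in serum (horizontal, log2) and in 2i (vertical, log2) for 51 genes of the G2/M list (gray circles) and for Psrc1, Gtse1 and Ckap2 (red diamonds). The gray genes center on 0.41 in 2i and -0.01 in serum; the vertical position of the 3 marked genes is what chose them.

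Other P53 targets linked to arrest and growth control gave 7 of 12 tested genes called lower in 2i, with a median of -0.82, and 4 of 12 in serum, with a median of -0.18. Among all genes tested, 5.97% were called lower in 2i and 0.883% in serum, and the median was 0.02 in each culture. None of the 12 was called higher in either culture, where 4.36% of all genes were in 2i and 0.135% in serum. Called in both cultures were Ccng1, a cyclin that acts in P53 feedback (-3.35 in 2i and -3.63 in serum), Trp53inp1, a stress protein that modifies P53 activity (-3.15 and -3.80), Zmat3, an RNA-binding splicing regulator (-2.69 and -1.83), and Sesn2, an inhibitor of mTORC1 signaling (-1.37 and -1.49). With a pseudocount of 1 the 2i value of Zmat3, whose P53-/- 2i libraries held 0.680 and 0.685 FPKM, was -1.82 and that of serum -1.64, each still called. Ccng1 read 158 and 198 FPKM with P53 in 2i against 17.1 and 17.5 without it. Sesn2 lost its serum call in a fit of the serum libraries alone and without the second P53-/- or either WT serum library (highest limma adjusted p = 0.171).

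In 2i the call also took in Klf4, a pluripotency factor (-0.96), Fbxw7, which encodes a ubiquitin ligase subunit that targets cyclin E (-0.95), and Ppm1d, the phosphatase WIP1 (-0.69). Their serum values were 0.17, -0.14 and -0.21 with limma adjusted p of 0.669, 0.753 and 0.733. The difference between cultures did not pass the test for any of the 3, with limma adjusted p from 0.102 for Klf4 to 0.499 for Ppm1d. Ppm1d lost its 2i call without either P53-/- 2i library or the second WT 2i library (highest limma adjusted p = 0.285). Gadd45a, E2f7, Pml, Hexim1 and Sesn1 were called in neither culture, and Rprm was below the filter.

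The kinases and cyclins that P21 restrains, with PCNA, formed a list of 12 genes. In 2i, 3 were called higher in P53-/- ESCs, the cyclin genes Ccna2 of S phase (1.03), Ccne2 of S phase entry (0.83) and Ccnb1 of mitosis (0.62), and Ccnd2 was called lower (-1.28) at levels of 0.294 FPKM or less in every 2i library. Of all genes tested, 4.36% were called higher and 5.97% lower in 2i. Ccnd2 passed the filter only through serum, where it averaged 10.7 FPKM without P53 and 8.94 with it. Its 2i call was lost with a pseudocount of 1 (-0.28) and in a fit of the 2i libraries alone (limma adjusted p = 0.117). It was also lost without the first P53-/- 2i library (-1.02). In serum limma called none of the 12, and 2 had an unadjusted p under 0.05, against 1422 of all 12572 genes. In a fit of the 2i libraries alone Ccna2 was the one left of the 3, and leaving out the second P53-/- 2i or the first WT 2i library left 1. The list's median was 0.14 in 2i and 0.07 in serum.

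The paralogs of each gene were compared to see how far a family moved together. In the CIP/KIP family of CDK inhibitors, Cdkn1b (P27) read 22.5 and 23.5 FPKM without P53 in 2i against 14.3 and 16.1 with it, and rose by 0.60 (limma adjusted p = 0.0314) where Cdkn1a fell. The call of Cdkn1b sat close to the fold threshold and was lost in 6 of 12 alternatives, among them without the second P53-/- 2i library (0.56) and without the first WT 2i library (0.51). Cdkn1c (P57) was at 0.83 in 2i (limma adjusted p = 0.262). In serum the values were 0.05 for Cdkn1b and 0.18 for Cdkn1c, and neither was called.

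In the BTG/TOB family Btg1 fell by 0.64 in 2i (limma adjusted p = 0.0757), from 9.14 and 11.5 FPKM to 7.19 and 5.91. Without either P53-/- 2i library or the second WT 2i library the call was lost, at -0.78, -0.50 and -0.48. Its serum value was -0.62 and not called (limma adjusted p = 0.261). Btg3, Tob1 and Tob2 were called in neither culture, with values from -0.42 to 0.46, and Btg4 was listed at 0 in every library.

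Among the polo-like kinases Plk1, the kinase of mitotic entry, rose by 0.91 in P53-/- 2i ESCs (limma adjusted p = 0.0235), from 7.23 and 5.79 FPKM to 13.4 and 11.1. Without the first P53-/- 2i library it was at 0.77 and not called (limma adjusted p = 0.111). Its serum value was 0.52 (limma adjusted p = 0.310). Plk4, which drives centriole duplication, stood at 0.58 in 2i, just below the fold threshold, and Plk5 at -1.45 with levels of at most 1.39 FPKM in 2i. The family thus held 1 gene called lower in both cultures, Plk2, and 1 called higher in 2i, Plk1.

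Of the 14-3-3 genes only Sfn was called between genotypes with all libraries, a call that ended with any 2i library left out. The other 6, Ywhab, Ywhae, Ywhag, Ywhah, Ywhaq and Ywhaz, ran from 0.01 to 0.50 on the log2 scale in 2i. An unadjusted limma p under 0.05 was found there for 3 of them, against 3173 of all 12572 genes. Ywhah (0.37, limma adjusted p = 0.0936) and Ywhaz (0.40, limma adjusted p = 0.0971) passed the p threshold but not that of the fold. Their serum values lay between -0.15 and 0.07. Ckap2l, the paralog of Ckap2, was at 0.35 in 2i and 0.07 in serum and was called in neither.

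To ask whether P53 loss acted differently in the 2 cultures, the fold change in 2i was set against that in serum for the 5 known targets. None was called by limma, where 0.207% of all genes were called in either direction. The difference was -0.05 for Cdkn1a (limma adjusted p = 0.964), -0.13 for Btg2 (0.915), -0.15 for Plk3 and -0.22 for Sfn. Plk2 had the largest, 2.77 (SE 0.58), at an unadjusted limma p of 0.00146 and an adjusted p of 0.161. Without the first P53-/- serum library it was 3.44 and passed the test (limma adjusted p = 0.0423), and without the second it was 2.09 and did not (limma adjusted p = 0.257). With a pseudocount of 1 it was 1.21 and did not pass (limma adjusted p = 0.199). Plk2 was the only one of the 5 with an unadjusted limma p under 0.05, against 1651 of all 12572 genes for this difference.

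By group means, Cdkn1a, Btg2 and Plk2 ran from WT 2i through WT serum and P53-/- 2i to P53-/- serum ESCs, and groups of the same genotype overlapped between cultures for Cdkn1a in both genotypes and for Btg2 in P53-/- ESCs. Plk3, Sfn and Ckap2 ran from WT serum through P53-/- serum and WT 2i to P53-/- 2i ESCs. In this order the middle groups overlapped for Sfn and Ckap2. Of all genes tested, 27.2% were called higher and 28.6% lower in WT 2i than in WT serum, and 28.0% higher and 30.1% lower in P53-/- 2i than in P53-/- serum ESCs, so that a call by culture was common. Plk2 rose in 2i by 2.15 in WT (limma adjusted p = 0.00273) and by 4.92 in P53-/- ESCs (limma adjusted p = 5.75e-05). The P53-/- value rests on the few reads of the P53-/- serum libraries, and was 5.59 without the first of them, 4.24 without the second and 3.29 with a pseudocount of 1, each still called. Plk3 fell in 2i by 0.95 in WT (limma adjusted p = 0.00474) and by 1.10 in P53-/- ESCs (limma adjusted p = 0.00218).

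Sfn fell in 2i by 0.63 in WT (limma adjusted p = 0.0287) and by 0.85 in P53-/- ESCs (limma adjusted p = 0.0076). The WT call was lost without any one of 3 libraries, the second of WT 2i and both of WT serum. The P53-/- call was lost without the first P53-/- serum library (-0.56), where the fold change was under the threshold. Cdkn1a differed between cultures by 0.17 in WT (limma adjusted p = 0.536) and 0.11 in P53-/- ESCs, less than the gap between the WT 2i libraries. Btg2 was higher in both WT 2i libraries than in both WT serum libraries, but the difference of 0.54 stayed under the fold threshold (limma adjusted p = 0.0981).

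Psrc1, Gtse1 and Ckap2, whose WT 2i and P53-/- 2i levels took part in their choice, are given by values only. Psrc1 was at 0.66 in WT 2i against WT serum and at -0.15 in P53-/- ESCs. Gtse1 was at -0.18 and -0.78 and Ckap2 at -0.55 and -0.95. Some of these values hang on 1 library. Psrc1 in WT was at 1.01 without the first WT 2i library and at 0.31 without the second, and Ckap2 at -0.32 and -0.78. Gtse1 in P53-/- ESCs was at -0.46 without the first P53-/- serum library and at -1.11 without the second. With 1 library left out, the values of Psrc1 in P53-/- and Gtse1 in WT ESCs ranged from -0.23 to -0.076 and from -0.28 to -0.075. Of the 51 other G2/M genes, 45 were called lower in WT 2i than in WT serum, with a median of -1.29.

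**Figure D4:**
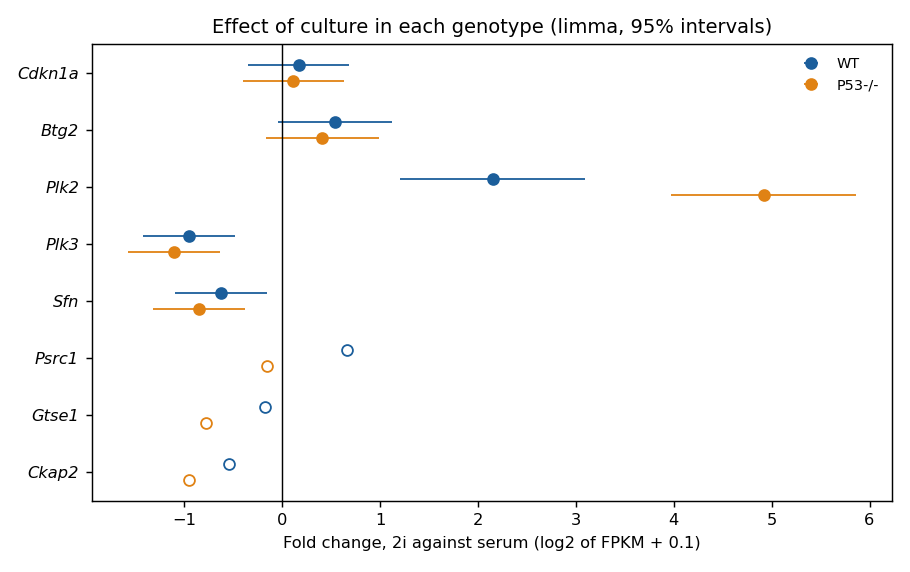
Fold change between 2i and serum (log2, horizontal axis) for each gene in WT (blue) and P53-/- (orange) ESCs, with limma 95% intervals; open circles are values without a test. Plk2 is higher in 2i in both genotypes, at 2.15 and 4.92, Plk3 and Sfn are lower in 2i in both, and Cdkn1a lies near 0.

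For each gene the 3 genes most like it were found by Pearson's r of log2(FPKM + 0.1) over the 8 libraries, among 11495 genes with a mean of at least 1 FPKM. The libraries fall into 4 groups, so that r mainly follows the group means, and it is given as a description. Cdkn1a was most like Ano3 (0.974), Nhej1 (0.974) and C77080 (0.970). Btg2 was closest to C77080 (0.993), Ccng1 (0.987) and Laptm5 (0.984). For Psrc1 the nearest were Ano3 (0.986), Bbc3, which encodes the apoptosis protein PUMA (0.985), and Plcg1 (0.985). Ano3 thus appeared for both Cdkn1a and Psrc1, and C77080 for both Cdkn1a and Btg2. Ano3 was at 0 in every P53-/- library and at 1.60 to 2.44 FPKM in the WT libraries, through which alone it reached the mean of 1 FPKM.

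The other genes had neighbors of their own. Plk2 was most like Afg1l (0.988), Ddit4, an inhibitor of mTORC1 (0.983), and Pid1 (0.980). Plk3 was closest to Rbm28 (0.994), Rad54l (0.992) and Setd5 (0.992), and Sfn to Agrn (0.983), Ipmk (0.981) and Eomes (0.980). Genes like Gtse1 included Rapgef3 (0.983) and Tgm1 (0.973), and Ckap2 was most like Ehd4 (0.995), Dock1 (0.993) and Ikbkb (0.985).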

How the data were processed

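RNA-seq covered G1 cells of R1 FUCCI ESCs, WT or P53-/-, in 4 groups of 2 libraries. Total RNA was depleted of ribosomal RNA, reverse-transcribed with random primers and made into stranded libraries. The submitters' processing notes name STAR, Cufflinks and DESeq2 and the build mm9, with no versions or roles. The authors deposited 1 table of FPKM values, 24881 symbols in 8 columns, whose names give genotype and culture only; libraries are numbered in column order. No column was left unused. How multi-mapping reads and strand were treated is not given in the sources used here.

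Depth was estimated from the smallest steps of FPKM in genes with 1 transcript over 600 bases in GENCODE M21, which gave 5200000 to 13000000 fragments, with no interval for counting error.

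limma 3.58.1 (R 4.3.3) was run on log2(FPKM + 0.1) over the 12572 genes that averaged 0.5 FPKM or more, in a single fit of the 4 groups with eBayes trend and Benjamini-Hochberg adjustment over all of them. In simulated data for the 2i comparison, with 200 of 12541 genes changed, 99% of those changed by 2 on the log2 scale and 87% of those changed by 1 were called. The noise there followed an assumed formula of the level alone and was not estimated from the libraries. These rates therefore need not hold for the real data. With 2 libraries a group, no exact test of a single gene can pass 0.05. Promoter windows came from RefSeq (GRCm38.p6), matched by symbol, and all 8 genes had one. No coordinate was taken from mm9.

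The members and lists were chosen with earlier results of these data known. The rule for named genes took the 8 members, their paralogs, the genes called in 2i or serum of the lists of other arrest targets, P21 targets and G2/M genes, the 3 best correlated genes per member (1 of which is not reported here), and Trp53. Uncalled genes of the short lists and single markers are also named, to account for their lists. Alternatives were another pseudocount, filter, scaling, trend, threshold or set of groups in the fit, and each library left out in turn; those for the other lists and the markers were added after seeing the data.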

Additional observations from a re-analysis of the deposited data

Results flagged for a closer look

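Ccna2, the cyclin of S phase and a partner of the kinases that P21 inhibits, was the gene of the lists used here whose response to P53 loss differed between the cultures by a test of the difference itself. It read 61.5 and 59.2 FPKM without P53 in 2i against 28.8 and 30.4 with it, and 88.0 and 85.8 against 96.9 and 94.0 FPKM in serum. On the log2 scale the 2i value was 1.03 and that of serum -0.14, a difference of 1.16 (limma adjusted p = 0.0435). The call was lost in 6 of 15 alternatives, 5 of which left out a single library and 1 of which used no trend, with limma adjusted p up to 0.152, while the difference itself lay between 1.06 and 1.20 in all 15. Summed G2/M genes moved in the same way in these libraries, and their part in this value was not tested.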

How the results depend on the processing

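Some calls of members depend on the spread shared by the 4 groups: in fits of only the groups compared, Sfn in 2i and Btg2 and Plk2 in serum lost theirs, while Cdkn1a in both cultures, Btg2 and Plk2 in 2i and Psrc1 in serum were still called. No paired analysis was possible because the columns carry no replicate number. Genes called in 2i numbered 1299, against 193 in a fit of the 2i libraries alone, 771 at an adjusted p under 0.05 and 491 to 1224 with a library left out. In serum 128 became 37, 73 and 52 to 148. For the difference between cultures 26 became 66 with a pseudocount of 1, 40 without a trend, 16 at an adjusted p under 0.05 and 19 to 69 with a library left out. The count of the 8 members called lower in serum went from 4 to 2 in a fit of the serum libraries alone, which has fewer samples, and ranged from 3 to 5 with a library left out; the 5 known targets called in 2i numbered 3 to 4 under the alternatives, Sfn being the one lost, and those called for the difference 0 to 1, the one being Plk2. Of the other lists, 7 arrest targets called lower in 2i became 4 in a fit of the 2i libraries alone, 3 P21 targets called higher became 1 there and 1 to 3 with a library left out, and 13 G2/M genes called higher became 1 there, 8 at an adjusted p under 0.05 and 7 to 15 with a library left out. Values near 0 changed sign when a library was left out. For the difference between cultures, Cdkn1a ranged from -0.35 to 0.24, Btg2 from -0.56 to 0.31, Plk3 from -0.33 to 0.022 and Sfn from -0.51 to 0.066. Plk3 in serum ranged from -0.24 to 0.037, Cdkn1a between cultures from -0.12 to 0.46 in WT and from -0.073 to 0.30 in P53-/- ESCs, and Btg2 between cultures in P53-/- ESCs from -0.025 to 0.84; the last was called (limma adjusted p = 0.00412) without the first P53-/- serum library. The call of Sfn between cultures in WT was also lost under median-ratio scaling (-0.57) and quantile normalization (-0.51), where that of Btg2 was gained (0.60 and 0.74). Of 504 member values under alternatives, 452 kept their call, or had no test, and kept their direction, 16 lost a call, 5 gained one, 13 changed sign (1 of them, Gtse1 between cultures in WT at 0.0093 under quantile normalization, without a test) and 18, all without a test, kept their sign but moved by more than 1 standard error; the causes were not tested. For the genes of the other lists and markers that were called between genotypes or for the difference, 94 of 410 such values lost their call and 0 changed sign; genes named for their correlation were not refitted. Low levels, such as Plk2 in P53-/- serum ESCs, are limited by depth.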
